A study of Mus musculus with 60 samples.

Results

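The genes described here are 7 genes of antigen presentation on MHC class II: H2-Aa, H2-Ab1, H2-Eb1, Cd74, H2-DMa, H2-DMb1 and Ciita. They were taken by symbol from the 24411 genes of the deposited count table, and all 7 were among the 9001 genes with enough reads to be tested. They were selected on their counts in these same mice, as genes that stayed low after carbon tetrachloride whether or not Trem1 was present. Their values in the 3 comparisons between groups, and the counts of members called there, are therefore a description that supports nothing. The one contrast that played no part in the choice is a split within the Trem1-deficient mice, and there they were tested.

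Kupffer cells are macrophages that live in the liver sinusoids, and their RNA was taken from 15 C57BL/6J mice aged 8 weeks and labelled male. There were 5 Trem1-deficient mice given carbon tetrachloride (CCl4), 5 wild-type mice given CCl4 and 5 wild-type mice given corn oil. CCl4, which injures hepatocytes once they metabolise it, was given as 1 dose of 2 µl per g body weight after a 1:4 dilution with corn oil, and all mice were killed at 12 h. The labels do not say how the Trem1 deficiency was made, and no Trem1-deficient mice given oil were analysed here, so the deficiency cannot be viewed without the injury. In every group, cells that bound CD11b beads were removed before F4/80-positive cells were taken. The step acts against macrophages with much CD11b on their surface, and how far it removed them was not tested. TREM1 is a receptor of myeloid cells that amplifies inflammatory signalling.

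MHC class II molecules show peptides from engulfed material to CD4+ T cells. H2-Aa and H2-Ab1 encode the α and β chains of I-A, and H2-Eb1 the β chain of I-E; C57BL/6 mice lack a working α chain for I-E, so their I-E does not reach the surface. CD74, the invariant chain, holds new class II molecules and guides them to endosomes, where cathepsins cut it down to a short fragment. H2-DM, made of H2-DMa and H2-DMb1, swaps that fragment for a peptide. CIITA is the co-activator that class II genes need; it binds no DNA itself and acts through factors on the X and Y boxes of their promoters. Kupffer cells carry class II at rest and are among the antigen-presenting cells of the liver.

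The 5 H2 members lie within 197 kb of chromosome 17, from 34119541 to 34316674, in the GENCODE M21 annotation of GRCm38, to which mm10 corresponds. Promoters of 4 of the 7 members, H2-Aa, H2-Eb1, H2-DMa and H2-DMb1, were found in the RefSeq table of promoters (GRCm38.p6), which runs from 250 bases before to 50 bases after each start. Stretches of 62 bases are shown because the X and Y boxes are where these genes are read together; capitals mark an X box core (CCNAGNNAC) where it stood 30 to 45 bases ahead of a Y box core (ATTGG) on the same strand, and the Y box core. H2-Ob, which encodes a chain of the H2-DM inhibitor H2-O, is shown for comparison. The windows are chr17:34153083-34153144 (plus strand) for H2-DMb1, chr17:34305761-34305822 (plus) for H2-Eb1, chr17:34287857-34287918 (minus) for H2-Aa and chr17:34238801-34238862 (plus) for H2-Ob.
H2-DMb1: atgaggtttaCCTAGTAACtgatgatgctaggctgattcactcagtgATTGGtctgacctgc
H2-Eb1: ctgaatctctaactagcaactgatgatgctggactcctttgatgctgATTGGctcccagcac
H2-Aa: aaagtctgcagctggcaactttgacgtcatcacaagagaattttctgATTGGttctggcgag
H2-Ob: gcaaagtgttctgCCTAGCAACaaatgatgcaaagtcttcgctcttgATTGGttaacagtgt

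A Y box core stood 61 bases before the start of H2-DMb1, 59 before that of H2-Eb1, 48 before that of H2-Aa and 57 before that of H2-Ob. On either strand the X core alone was found in 17.3% and the Y core in 37.4% of the 32851 promoters of the table, so neither sets a promoter apart. The spaced pair was found in 0.28%, among them H2-DMb1, H2-Ob and H2-Oa, the gene of the other H2-O chain. It was not found in the promoters of H2-Aa, H2-Eb1, H2-DMb2 and H2-Eb2, nor in either of the 2 H2-DMa promoters, of which 1 held a Y core and 0 an X core. Only exact matches of both cores were counted. An X box that departs from the core in 1 letter was missed, so a promoter without the pair is not shown to lack the boxes. In the spaced pair the cores do not overlap. These are matches of letters and show no binding.

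Gene reads numbered 812320 to 2593004 per mouse and made up 12.6% to 28.8% of all reads, so 3 reads, the limit that a count of 0 allows, correspond to 1.16 to 3.69 CPM, the count scaled to a library of 1000000 gene reads. Levels are CPM of the gene reads after TMM scaling. On that scale 3 reads correspond to 0.988 to 4.03 CPM. The libraries were made from the 3' ends of transcripts, so no correction for length was made between genes. How fully the 3' end of each gene was counted is not known, which limits ratios between genes. Trem1 itself had 1.16 to 10.7 CPM in the Trem1-deficient mice, 109 to 567 CPM in wild-type CCl4 mice and 32.4 to 107 CPM in wild-type oil mice, which fits the genotype labels. The sex label was at odds with the reads: 7 libraries had 72 to 1552 Xist reads and 0 to 7 reads of 4 Y-linked genes, and 8 had 1 to 31 Xist reads and 134 to 425 Y-linked reads. This split follows the library index numbers. One series of index numbers, 15 to 87 in steps of 12, holds Trem1-deficient mice 1 and 2 with all oil mice, and the other, 4 to 88, holds Trem1-deficient mice 3 to 5 with all wild-type CCl4 mice. The labels do not say what the index series stand for. CCl4 in wild type, index series and the sex read from transcripts therefore cannot be told apart by group means, and within-series values are given below.

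The summed level of the 7 genes was 2075 ± 275 CPM in Trem1-deficient CCl4 mice, 2112 ± 409 CPM in wild-type CCl4 mice and 7086 ± 1649 CPM in wild-type oil mice (SD, n = 5 each). By mouse it was 2103, 2475, 2076, 2019 and 1702 CPM in the Trem1-deficient mice, 1663, 1868, 1973, 2388 and 2669.76 CPM in the wild-type CCl4 mice, and 8155, 5855, 9459, 6254 and 5709.69 CPM in the oil mice. Both CCl4 groups covered much the same range, and no CCl4 mouse came near the lowest oil mouse. The members behind these even sums differed in direction. H2-Aa, H2-Ab1 and H2-Eb1 together had 1073 ± 119 CPM in Trem1-deficient and 1557 ± 514 CPM in wild-type CCl4 mice, with overlap. The means of Cd74 (421 against 225 CPM) and H2-DMb1 (452 against 231 CPM) went the other way. In bulk RNA, fewer class II-bearing cells and less class II RNA per cell cannot be told apart.

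**Figure D1:**
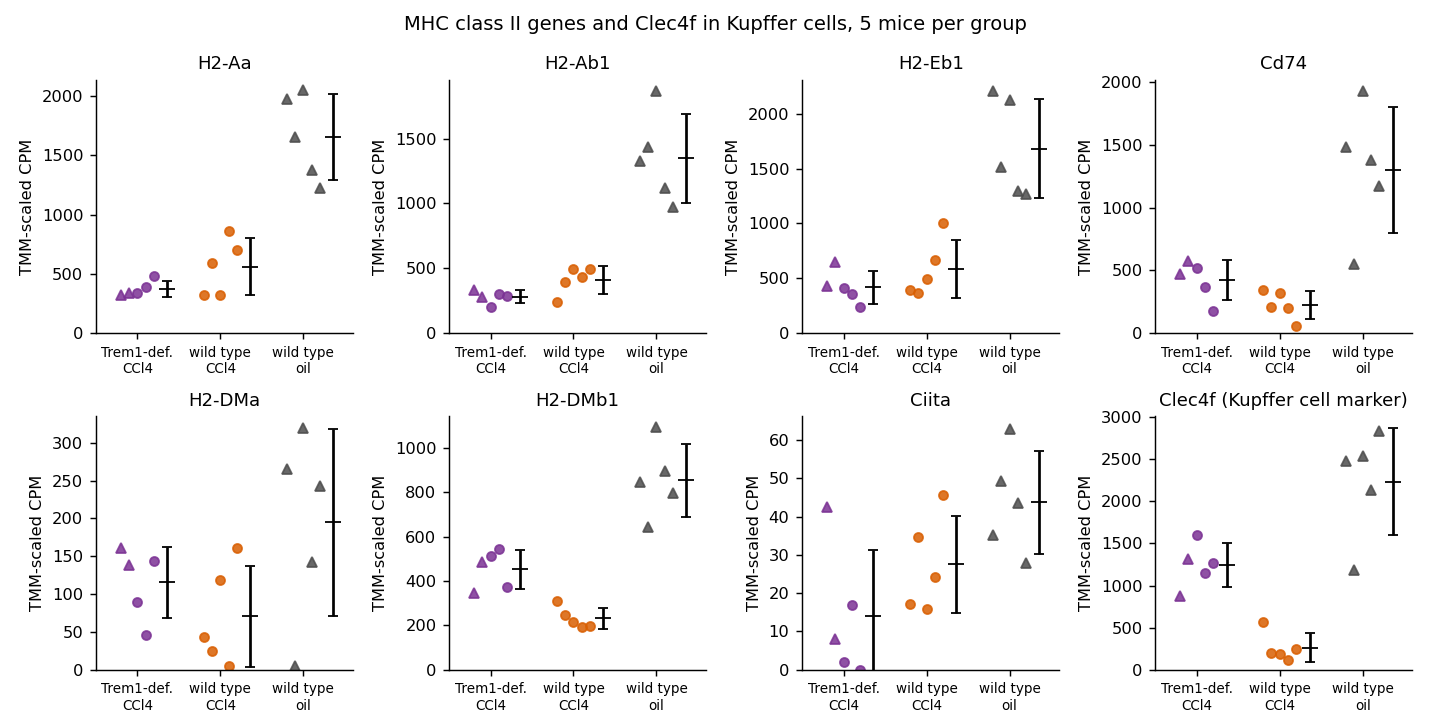
TMM-scaled CPM of the 7 class II genes and of the Kupffer cell marker Clec4f, 1 point per mouse, with mean ± SD at the right of each group. Triangles are mice of the index series that holds the oil mice, circles mice of the other; H2-Aa, H2-Ab1 and H2-Eb1 of all 10 CCl4 mice lie below all 5 oil mice, whereas Clec4f of the Trem1-deficient mice, 881 to 1598 CPM, lies between the other groups and overlaps the oil mice.

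The chain genes of both CCl4 groups lay wholly below the oil mice. H2-Ab1 had 332, 279, 204, 304 and 289.65 CPM in Trem1-deficient CCl4 mice 1 to 5, 237, 396, 496, 432 and 493 CPM in wild-type CCl4 mice, and 1331, 1438, 1872, 1119.52 and 977 CPM in wild-type oil mice. The CCl4 groups overlapped each other, and the highest CCl4 mouse, at 496 CPM, stood well under the lowest oil mouse. Its log2 fold change was -2.26 ± 0.28 (SE) for Trem1-deficient CCl4 over oil, -0.55 ± 0.27 for Trem1-deficient CCl4 over wild-type CCl4, and -1.70 ± 0.27 for wild-type CCl4 over oil.

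H2-Aa, the partner chain, had 319, 339, 337, 385 and 486 CPM in Trem1-deficient CCl4 mice, 324, 594, 320.5, 863 and 704 CPM in wild-type CCl4 mice, and 1981, 1655, 2053, 1375 and 1225 CPM in oil mice. Its order of groups was that of H2-Ab1, with a wider spread in the wild-type CCl4 mice. H2-Eb1 had 428, 651, 414, 359 and 239 CPM in Trem1-deficient CCl4 mice, 390.02, 364, 492, 669.83 and 1008 CPM in wild-type CCl4 mice, and 2212, 1517, 2127, 1294 and 1266 CPM in oil mice. Again neither CCl4 group reached the oil mice. Against oil, the log2 fold changes of Trem1-deficient CCl4 mice were -2.15 ± 0.29 for H2-Aa and -2.01 ± 0.31 for H2-Eb1, and those of wild-type CCl4 mice -1.55 ± 0.29 and -1.51 ± 0.31. Trem1-deficient over wild-type CCl4 mice gave -0.60 ± 0.28 and -0.49 ± 0.30, with overlapping groups. H2-Eb1 overlaps Gm20513 on the opposite strand, and reads of the pair cannot be told apart unless the counting used strand.

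Cd74, a gene of chromosome 18, took the other order after CCl4. It had 473, 577, 516, 364 and 173 CPM in Trem1-deficient CCl4 mice, 342, 208, 316, 203 and 59.1 CPM in wild-type CCl4 mice, and 1484, 549, 1928, 1384 and 1176 CPM in oil mice. Oil mouse 2 stood low, inside the range of the Trem1-deficient mice, and the CCl4 groups overlapped. The log2 fold change was -1.63 ± 0.38 for Trem1-deficient CCl4 over oil, 0.89 ± 0.38 for Trem1-deficient over wild-type CCl4, and -2.53 ± 0.40 for wild-type CCl4 over oil.

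H2-DMb1, the β chain of the peptide loader, had 346, 484, 514, 545 and 371 CPM in Trem1-deficient CCl4 mice, 308, 246, 213, 192 and 198 CPM in wild-type CCl4 mice, and 846, 643, 1096, 895 and 795 CPM in oil mice. The groups formed 3 steps with no overlap: wild-type CCl4 lowest, Trem1-deficient CCl4 between, oil highest. Its log2 fold change was -0.92 ± 0.26 for Trem1-deficient CCl4 over oil, 0.96 ± 0.27 for Trem1-deficient over wild-type CCl4, and -1.88 ± 0.27 for wild-type CCl4 over oil. It was the only member whose CCl4 groups did not overlap, where 3.47% of tested genes were higher in all Trem1-deficient CCl4 mice than in all wild-type CCl4 mice. H2-DMb2, a close copy next to it, was at most 3.35 CPM in any mouse, and the labels do not say how reads shared by both were counted.

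H2-DMa, the α chain, varied widely from mouse to mouse. It had 161, 138, 89.7, 45.9 and 143 CPM in Trem1-deficient CCl4 mice, 43.9, 24.8, 118, 4.49 and 161 CPM in wild-type CCl4 mice, and 265, 4.93, 319, 142 and 243 CPM in oil mice. Oil mouse 2 had 4 H2-DMa reads and wild-type CCl4 mouse 4 had 8, and all 3 groups overlapped. The errors were large, with log2 fold changes of -0.75 ± 0.78 for Trem1-deficient CCl4 over oil, 0.71 ± 0.78 for Trem1-deficient over wild-type CCl4 and -1.47 ± 0.80 for wild-type CCl4 over oil. The gene overlaps Brd2 and further annotated genes, most of them on the opposite strand, with the same limit on strand.

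Ciita, the co-activator gene, on chromosome 16, was the least abundant. It had 42.5, 8.03, 2.15, 16.9 and 0 CPM in Trem1-deficient CCl4 mice, 17.0, 34.8, 16.0, 24.1 and 45.7 CPM in wild-type CCl4 mice, and 35.2, 49.3, 62.8, 43.6 and 27.8 CPM in oil mice. In Trem1-deficient mouse 5 no read was counted, which allows up to 1.74 CPM, while Trem1-deficient mouse 1 lay within the oil range. The groups overlapped, with log2 fold changes of -1.64 ± 0.94, -0.98 ± 0.93 and -0.66 ± 0.92 for Trem1-deficient CCl4 over oil, Trem1-deficient over wild-type CCl4 and wild-type CCl4 over oil. It overlaps Dexi on the opposite strand, with the same limit on strand.

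By the edgeR quasi-likelihood test at an adjusted p under 0.05, 3 of the 7 members were called lower in Trem1-deficient CCl4 than in oil mice, where 0.0555% of the 9001 tested genes were. Those 3 were H2-Ab1, H2-Aa and H2-Eb1. Between wild-type CCl4 and oil mice 5 of 7 were called lower (H2-DMb1, H2-Ab1, Cd74, H2-Aa and H2-Eb1), against 2.09% of tested genes. Between Trem1-deficient and wild-type CCl4 mice the test called 0 of 7 in either direction, against 0.778% of tested genes higher and 1.28% lower; 4 of 7 had an unadjusted p under 0.05, as did 1365 of 9001 genes, and DESeq2 called 1. Groups without overlap were counted for 4 of 7 members lower in Trem1-deficient CCl4 than in oil mice, where 1.27% of genes were, and for 5 of 7 in wild-type CCl4 mice, where 3.48% were. The median log2 fold change of the members was -1.64, -0.49 and -1.55 for Trem1-deficient CCl4 over oil, Trem1-deficient over wild-type CCl4 and wild-type CCl4 over oil, beside 0.02, -0.03 and 0.06 over all tested genes. Since the members were chosen for this pattern, nothing is read from these counts. The comparisons share their mice in pairs.

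The split by index series within the Trem1-deficient mice was not used in the choice. Mice 3 to 5 against mice 1 and 2 gave log2 fold changes of 0.29 ± 0.41 for H2-Aa, -0.20 ± 0.39 for H2-Ab1, -0.68 ± 0.42 for H2-Eb1, -0.58 ± 0.53 for Cd74, -0.69 ± 1.08 for H2-DMa, 0.20 ± 0.39 for H2-DMb1 and -2.01 ± 1.33 for Ciita. By edgeR's quasi-likelihood test the adjusted p was 1 for each, with 0 of 7 called lower or higher, where 0.0111% of tested genes were called lower and 0.0555% higher; 0 of 7 had an unadjusted p under 0.05, as did 243 of 9001 genes, and DESeq2 called 0. H2-Eb1 did not overlap, being lower in all 3 of mice 3 to 5 than in mice 1 and 2, where 11.7% of tested genes did the same. With 3 mice against 2, a difference of the size of these SEs would not have been detectable. Hepatocyte markers summed to 4072 to 13673 CPM in mice 3 to 5 and 1259 to 1658 CPM in mice 1 and 2, and sinusoidal endothelial markers to 1004 to 2054 CPM in mice 3 to 5 and 2608 to 3648 CPM in mice 1 and 2. Of 10 hepatocyte genes edgeR called 0, 10 had an unadjusted p under 0.05 and DESeq2 called 7; their part in the class II values was not tested.

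Within the index series that holds the oil mice, Trem1-deficient mice 1 and 2 over the oil mice gave -2.33 ± 0.43 for H2-Aa, -2.14 ± 0.41 for H2-Ab1, -1.64 ± 0.43 for H2-Eb1, -1.31 ± 0.53 for Cd74 and -1.04 ± 0.38 for H2-DMb1 on the log2 scale. H2-DMa was then at -0.38 ± 1.02 and Ciita at -0.79 ± 1.26, against -0.75 and -1.64 from all 5 mice. Each of the 7 values differed from that of all 5 mice by less than its SE. A comparison within 1 series reuses mice of the main comparison, so closeness to the main values is partly built in. By edgeR, H2-Aa and H2-Ab1 were called here (adjusted p = 0.0123 and 0.0151), and H2-Eb1 was not (adjusted p = 0.149). The members were chosen on the values of these same mice, so nothing is read from these calls. In this series the transcripts put both groups in the same sex. Within the other series, Trem1-deficient mice 3 to 5 over wild-type CCl4 mice gave -0.49 ± 0.33 for H2-Aa, -0.64 ± 0.32 for H2-Ab1, -0.80 ± 0.35 for H2-Eb1, 0.63 ± 0.42 for Cd74, 0.40 ± 0.87 for H2-DMa, 1.03 ± 0.31 for H2-DMb1 and -2.14 ± 1.18 for Ciita, with the directions unchanged. For CCl4 in wild type no series holds both groups. With a term for index series, which only the Trem1-deficient mice inform, the change was -1.84 ± 0.52 for H2-Aa, -1.50 ± 0.49 for H2-Ab1, -0.84 ± 0.52 for H2-Eb1, -1.94 ± 0.67 for Cd74, -0.78 ± 1.34 for H2-DMa and -2.08 ± 0.50 for H2-DMb1, and 0 of 7 members were called. Ciita then stood at 1.35 ± 1.61, the other way from its value without the term.

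The 7 genes did not keep fixed proportions. H2-DMb1 per summed CPM of the 3 chain genes was 0.425 ± 0.0978 in Trem1-deficient CCl4 mice, 0.171 ± 0.0942 in wild-type CCl4 mice and 0.188 ± 0.0437 in oil mice (SD, n = 5 each). The Trem1-deficient mice lay at 0.321 to 0.538 and the oil mice at 0.139 to 0.236, with no overlap, and wild-type CCl4 mouse 1, at 0.324, reached the Trem1-deficient range. Cd74 per 3 chains was 0.390 ± 0.141 in Trem1-deficient CCl4 mice, 0.177 ± 0.128 in wild-type CCl4 mice and 0.282 ± 0.0978 in oil mice, and those ranges overlapped. The ratio of H2-Aa to H2-Ab1, 2 chains of the same molecule, was 1.35 ± 0.306 in Trem1-deficient CCl4 mice, 1.39 ± 0.483 in wild-type CCl4 mice and 1.24 ± 0.1503 in oil mice.

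**Figure D2:**
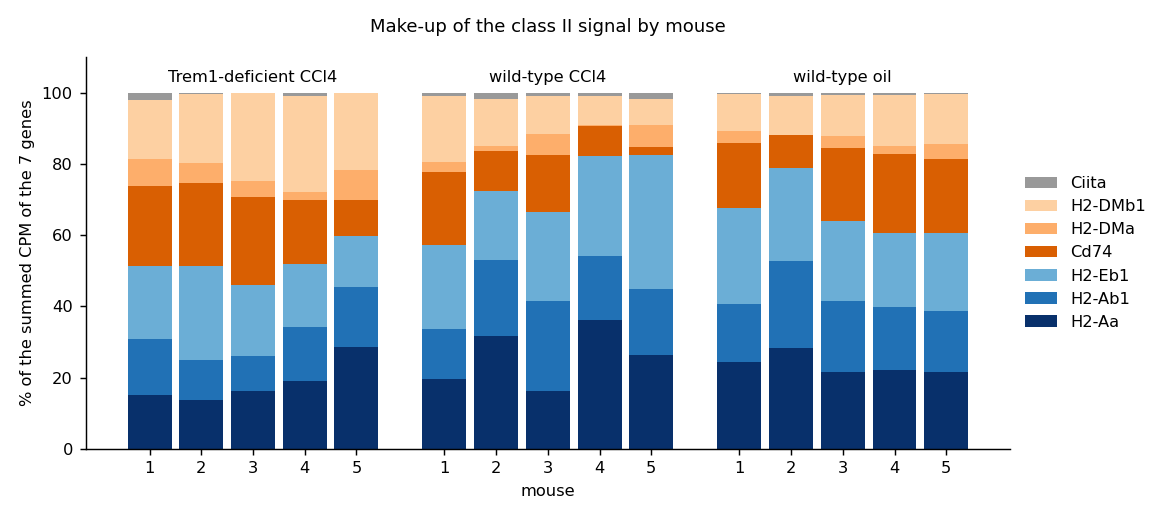
Share of each class II gene in the summed CPM of the 7 genes, 1 bar per mouse, in percent. H2-DMb1 averaged 21.9% in Trem1-deficient CCl4 mice, 11.6% in wild-type CCl4 mice and 12.2% in oil mice, and Cd74 made up 2.22% in wild-type CCl4 mouse 5.

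Markers of Kupffer cells were low in wild-type CCl4 mice, as the class II genes were, but in Trem1-deficient CCl4 mice their sum was within the oil range. Summed over 15 markers, they stood at 57385 to 71219 CPM of gene reads in Trem1-deficient CCl4 mice, 6090 to 18902 CPM in wild-type CCl4 mice and 32847 to 78684 CPM in oil mice. The wild-type CCl4 mice lay wholly below both other groups. A few abundant genes dominate the sum, and markers with less RNA weigh little in it. Cd5l averaged 18189 TMM-scaled CPM in Trem1-deficient CCl4 mice, against 18924 in oil mice, and C1qa 15279.5 against 20417. The scavenger receptor gene Marco averaged 7324 against 1182. Of the 15 markers, 0 were called lower in Trem1-deficient CCl4 than in oil mice. Only 1, Marco, was called higher there, where 0.178% of tested genes were. In Trem1-deficient over wild-type CCl4 mice 12 were higher, where 0.778% of tested genes were. In wild-type CCl4 over oil mice 12 were lower, where 2.09% of tested genes were. Within 1 index series 1 marker was higher in Trem1-deficient CCl4 than in oil mice, as were 6 of the 9001 tested genes. Within the other series 10 markers were higher in Trem1-deficient than in wild-type CCl4 mice, as were 37 of all tested genes. With a term for index series 6 markers were lower in wild-type CCl4 than in oil mice, as were 12 of all tested genes. In Trem1-deficient CCl4 over oil 13 of the 15 stood below 0, with a median log2 fold change of -0.40; 4 had an unadjusted p under 0.05, Marco upward and Folr2, Csf1r and Clec4f downward, and DESeq2 called 1. Folr2, a folate receptor gene, was at -1.21 ± 0.38 (edgeR adjusted p = 0.38), and Csf1r, the receptor gene of a macrophage growth factor, at -0.81 ± 0.29 (edgeR adjusted p = 0.65). Clec4f, a lectin found on Kupffer cells, had 1243 ± 261 CPM in Trem1-deficient CCl4 mice, 263 ± 175 CPM in wild-type CCl4 mice and 2232 ± 637 CPM in oil mice. Trem1-deficient CCl4 over oil was -0.84 ± 0.32 on the log2 scale for Clec4f (edgeR adjusted p = 0.70), and Trem1-deficient over wild-type CCl4 was 2.23 ± 0.33 (edgeR adjusted p = 0.000193).

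Set over Clec4f in the same mouse, the 7-gene sum was 2.39, 1.88, 1.30, 1.76 and 1.34 in Trem1-deficient CCl4 mice, 2.94, 9.65, 10.4, 19.97 and 10.8 in wild-type CCl4 mice, and 3.29, 4.96, 3.74, 2.93 and 2.02 in oil mice. The Trem1-deficient mice were lowest, although mouse 1 stood above the lowest oil mouse, and 4 of the 5 wild-type CCl4 mice were above every other mouse; mouse 1, whose Clec4f of 566 CPM was the highest of its group, was within the oil range. The means were 1.73 ± 0.446, 10.7 ± 6.07 and 3.39 ± 1.08 (SD, n = 5 each) for Trem1-deficient CCl4, wild-type CCl4 and oil. Clec4f itself was intermediate in the Trem1-deficient CCl4 mice: each stood above every wild-type CCl4 mouse and below the oil mean. In wild-type CCl4 over oil its log2 fold change was -3.08, the lowest of the 15 Kupffer cell markers. Csf1r stood at -2.34 and Marco at 0.07. The height of the ratio in wild-type CCl4 mice therefore depends on the marker chosen, and ratios to other markers were not taken.

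**Figure D3:**
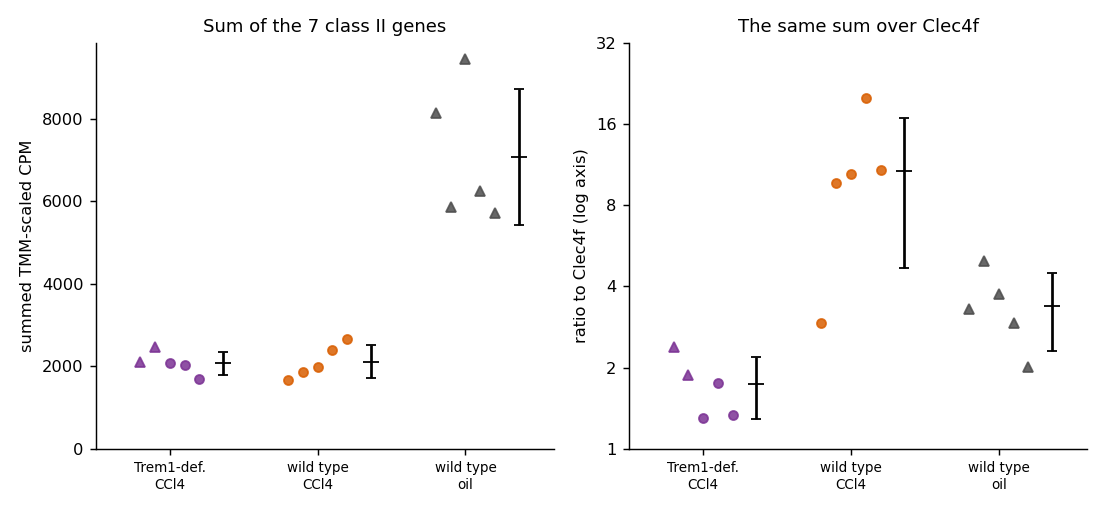
Left, summed TMM-scaled CPM of the 7 class II genes per mouse; right, the same sum divided by Clec4f of that mouse, on a log axis, with mean ± SD (triangles and circles are the 2 index series). The sums of both CCl4 groups stand side by side at about the same height, although single members differ between these groups in opposite directions. The ratios to Clec4f part them, at 1.30 to 2.39 in Trem1-deficient and 2.94 to 19.97 in wild-type CCl4 mice. Oil mice lie at 2.02 to 4.96. Ratios to other markers were not taken.

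**Figure D4:**
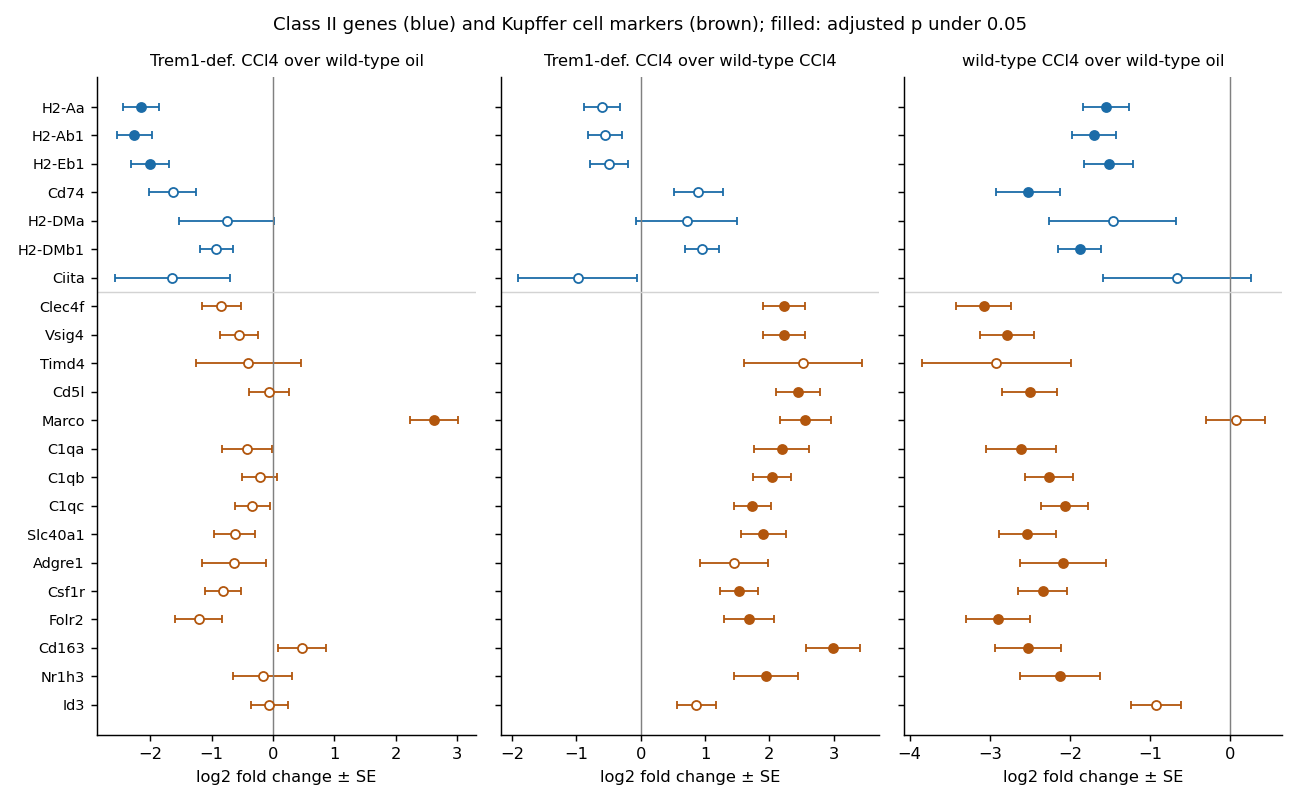
Log2 fold change ± SE of the 7 class II genes (blue) and 15 Kupffer cell markers (brown) in 3 comparisons, filled where the edgeR adjusted p was under 0.05. In Trem1-deficient CCl4 over oil, the chain genes stand near -2 and 13 of the 15 Kupffer markers below 0, with a median of -0.40, and Marco stands at 2.63; in wild-type CCl4 over oil both groups of genes lie left of 0 apart from Marco.

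Class II genes are also read in B cells and dendritic cells. The 9 B-cell markers summed to 5.53 to 120 CPM in Trem1-deficient CCl4 mice, 12.3 to 134 CPM in wild-type CCl4 mice and 26.0 to 206 CPM in oil mice; Pax5 had 0 reads in all 15 mice and Cd79a 0 in the oil mice. Those sums overlapped in all groups. A marker sum does not give the amount of class II RNA that its cells brought. The 10 dendritic cell markers summed to 1213 to 2448 CPM in Trem1-deficient CCl4 mice, 477 to 1258 CPM in wild-type CCl4 mice and 864 to 2128 CPM in oil mice, none being at 0 in a whole group, and most of it was Bst2, which many cells express. Without Bst2 the sums were 123 to 234 CPM, 112 to 944 CPM and 107 to 207 CPM for Trem1-deficient CCl4, wild-type CCl4 and oil, the top value being wild-type CCl4 mouse 5, whose H2-Eb1 was the highest and Cd74 the lowest of its group. Monocyte markers, of cells that can also carry class II, summed to 715 to 1658 CPM in Trem1-deficient CCl4 mice, 2052 to 4240 CPM in wild-type CCl4 mice and 531 to 1124 CPM in oil mice, highest in all 5 wild-type CCl4 mice. Hepatocyte markers summed to 1259 to 13673 CPM in Trem1-deficient CCl4 mice, 7104 to 29104 CPM in wild-type CCl4 mice and 1572 to 9486 CPM in oil mice, and neutrophil markers to 414 to 3674 CPM in Trem1-deficient CCl4 mice, 1097 to 10471 CPM in wild-type CCl4 mice and 211 to 1569.75 CPM in oil mice. Sinusoidal endothelial markers summed to 1004 to 3648 CPM in Trem1-deficient CCl4 mice. In wild-type CCl4 mice they stood at 794 to 1217 CPM and in oil mice at 672 to 2439 CPM. The part of these cells in the class II levels was not tested.

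The accessory list holds further class II chains, endosomal proteases and genes of peptide processing and class II turnover. Of 17 accessory genes 14 were in the table and 9 were tested: 0 of 9 changed in Trem1-deficient CCl4 over oil (edgeR; 2 at an unadjusted p under 0.05, and 0 by DESeq2), 2 were higher in Trem1-deficient than in wild-type CCl4 mice, and in wild-type CCl4 over oil 1 was higher, where 3.04% of tested genes were, and 5 were lower. The list's median log2 fold change was 0.13, 1.03 and -0.93 in these comparisons. Ctss, cathepsin S, which cuts the invariant chain in antigen-presenting cells, had 1511 ± 303 CPM in Trem1-deficient CCl4 mice, 1068 ± 365 CPM in wild-type CCl4 mice and 2390.07 ± 449 CPM in oil mice. It fell in wild-type CCl4 over oil (log2 fold change -1.15 ± 0.26, edgeR adjusted p = 0.00504), and Trem1-deficient CCl4 over oil gave -0.66 ± 0.25 (edgeR adjusted p = 0.71).

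The lysosomal proteases followed no single direction. Ctsl, cathepsin L, rose to 903 ± 395 CPM in wild-type CCl4 mice, against 263 ± 170 CPM in oil mice (1.79 ± 0.36 on the log2 scale, edgeR adjusted p = 0.00198). Ctsb, cathepsin B, fell to 895 ± 244 CPM in wild-type CCl4 mice, against 2031 ± 394 CPM in oil mice (-1.18 ± 0.25, edgeR adjusted p = 0.00327), and Ctsh, cathepsin H, to 212 ± 118 CPM, against 566 ± 188 CPM (-1.41 ± 0.36, edgeR adjusted p = 0.0156), a call lost without oil mouse 1. Ctsd and Cd83, whose product slows the turnover of class II molecules, made up the 5. Ctsd, cathepsin D, was higher in Trem1-deficient CCl4 mice, at 2623 ± 730.05 CPM, than in wild-type CCl4 mice, at 1089 ± 241 CPM (1.26 ± 0.24, edgeR adjusted p = 0.0026), and so was Ctsb, at 1866 ± 449.97 CPM (1.05 ± 0.25, edgeR adjusted p = 0.0183). The Ctsb call was lost in 4 of 18 settings, among them without Trem1-deficient mouse 5 and without wild-type CCl4 mouse 3 or 4. With index series as a term, the wild-type CCl4 over oil values of Ctsl, Ctsb, Ctss and Ctsh had edgeR adjusted p of 0.59, 0.12, 0.11 and 0.49.

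**Figure D5:**
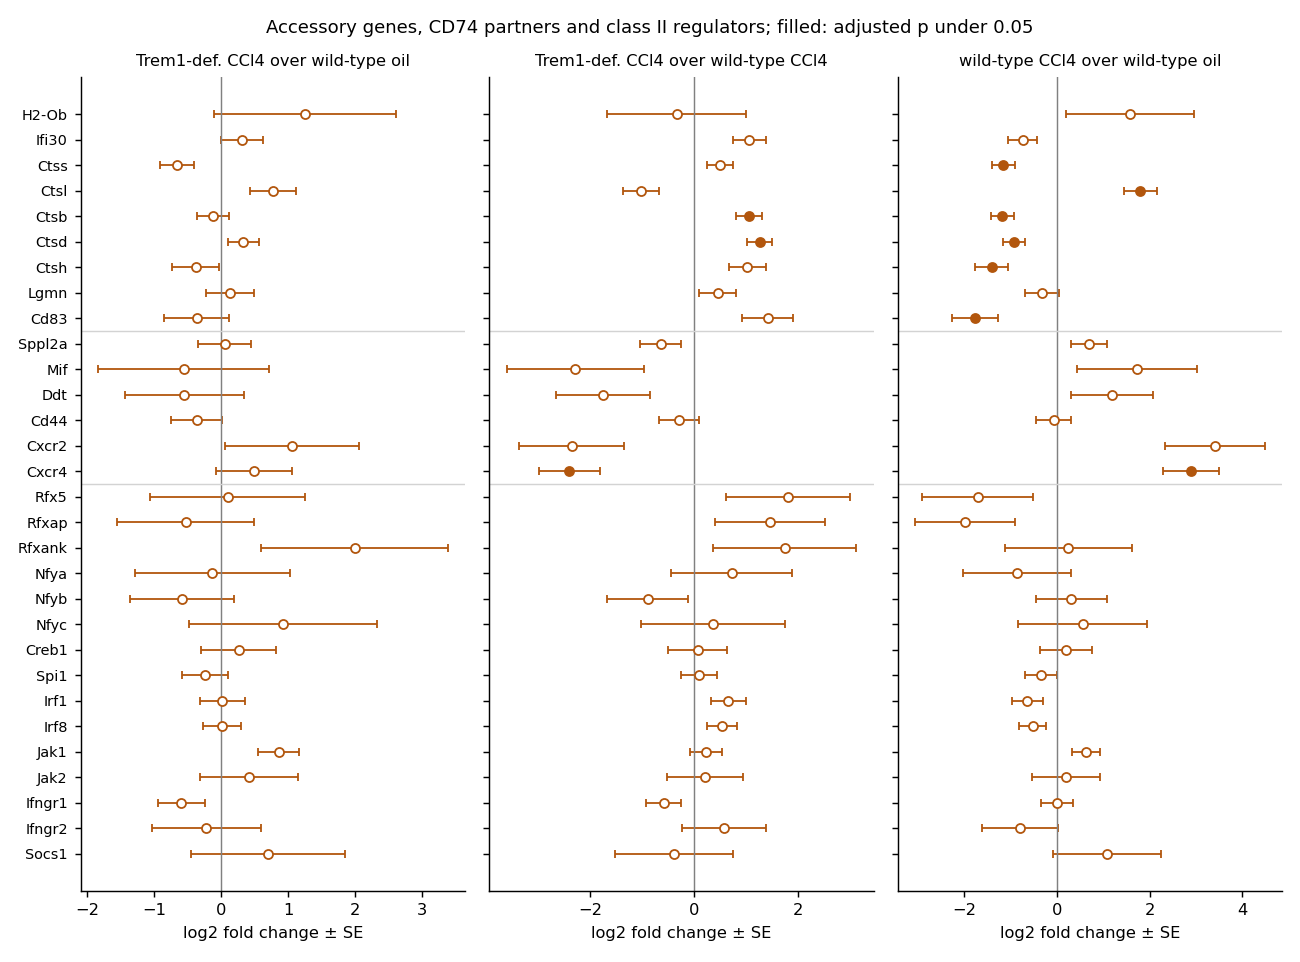
Log2 fold change ± SE of the tested accessory genes (top), CD74 partners (middle) and class II regulators (bottom), filled where the edgeR adjusted p was under 0.05. No gene passed in Trem1-deficient CCl4 over oil; of the 15 regulators none passed in any comparison shown.

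The regulators of class II transcription gave no calls. The list holds the RFX and NF-Y factors that sit on the X and Y boxes, the macrophage factors Spi1 and Irf8, and genes of the interferon-γ route that switches Ciita on, Irf1 among them; 15 of its 18 genes were tested. By edgeR 0 of 15 changed in Trem1-deficient CCl4 over oil, Trem1-deficient over wild-type CCl4 and wild-type CCl4 over oil, with 1, 0 and 1 at an unadjusted p under 0.05 and 0 by DESeq2. Their median log2 fold changes were 0.02, 0.37 and -0.0055. Several of these genes had few reads. In wild-type CCl4 over oil Rfx5 stood at -1.71 ± 1.20, Rfxap at -1.98 ± 1.07 and Rfxank at 0.25 ± 1.37 (SE). Rfx5 had no reads in 3 of the 5 wild-type CCl4 mice. With SEs of this size, 0 calls do not show that these genes were unchanged. Ifng, the gene of interferon-γ, averaged 0.79, 0.83 and 0.90 CPM in Trem1-deficient CCl4, wild-type CCl4 and oil. These averages were under the level of 3 reads, but the highest mouse of each group had 3.95, 2.82 and 3.53 CPM.

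Costimulatory genes and the class I route were mostly without calls. Of 11 costimulatory genes 7 were tested and edgeR called 0 in the comparisons in that order, with 0, 1 and 1 at an unadjusted p under 0.05; DESeq2 called 0, 0 and 1. Of 22 class I genes 19 were tested, and edgeR called 0 in both comparisons of Trem1-deficient mice (1 and 2 at an unadjusted p under 0.05, 0 by DESeq2). In wild-type CCl4 over oil Calr, the calreticulin chaperone of class I assembly, rose to 3610.06 ± 2550.09 CPM, against 1310.32 ± 202 CPM in oil mice (1.47 ± 0.35, edgeR adjusted p = 0.0143). Psmb9, an immunoproteasome subunit, fell to 65.0 ± 22.4 CPM in wild-type CCl4 mice, against 177 ± 47.3 CPM in oil mice (-1.44 ± 0.42, edgeR adjusted p = 0.0438), a call lost in 11 of 18 settings, among them without oil mouse 3, 4 or 5 and without wild-type CCl4 mouse 1, 3 or 4. With index series as a term both calls were lost. The class I list's median log2 fold change was -0.06 in Trem1-deficient CCl4 over oil, 0.32 in Trem1-deficient over wild-type CCl4 and -0.74 in wild-type CCl4 over oil, where 8 of 19 had an unadjusted p under 0.05 and DESeq2 called 2.

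CD74 on the surface also serves as a receptor for the cytokine MIF, with CD44, CXCR2 and CXCR4 as partners. Of 6 genes of that route, edgeR called 0 in Trem1-deficient CCl4 over oil (0 at an unadjusted p under 0.05, 0 by DESeq2). Cxcr4 alone passed in the other comparisons, with 44.5 ± 7.73 CPM in Trem1-deficient CCl4 mice, 233 ± 243 CPM in wild-type CCl4 mice and 31.9 ± 21.8 CPM in oil mice. It was lower in Trem1-deficient than in wild-type CCl4 mice (-2.40 ± 0.58, edgeR adjusted p = 0.0244) and rose in wild-type CCl4 mice over oil mice (2.89 ± 0.60, edgeR adjusted p = 0.00289). The first call was lost in 8 of 18 settings, among them without Trem1-deficient mouse 1, 2, 3 or 4 and without wild-type CCl4 mouse 5; with a term for index series the second was lost too. Without wild-type CCl4 mouse 5 the log2 fold change of Cxcr4 was -1.49.

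Among themselves, the members' profiles over the 15 mice were compared by the root mean square difference of their centred log2(CPM + 1) values. The chain genes lay closest, at 0.37 for H2-Aa and H2-Ab1, 0.43 for H2-Ab1 and H2-Eb1 and 0.49 for H2-Aa and H2-Eb1, and the next pair was Cd74 and H2-DMb1 at 0.70. H2-DMa and Ciita lay farthest apart, at 2.47. Of the other 8994 tested genes, the 8 most like the mean profile of the members were Ifi204, Ifi203, Sh3glb1, Pld4, Tnfaip2, Pdlim2, Kctd12 and Marcks, at 0.47 to 0.58, where the median gene stood at 1.63. The members themselves lay at 0.43 (H2-Eb1) to 1.57 (H2-DMa) from that mean, with Cd74 at 0.81 and Ciita at 1.25. For H2-DMa 4044 of the other genes were closer to the mean, and for Ciita 2020. The mean profile therefore stands poorly for these members. Ifi204 and Ifi203 belong to a family of interferon-inducible nuclear proteins, and Pld4 encodes a nuclease of endosomes and lysosomes. Ifi204, the closest, averaged 78.1 CPM in Trem1-deficient CCl4 mice, 77.4 CPM in wild-type CCl4 mice and 154 CPM in oil mice. Tnfaip2, a TNF-induced gene of myeloid and endothelial cells, averaged 922 CPM in Trem1-deficient CCl4 mice, 710.15 CPM in wild-type CCl4 mice and 1741 CPM in oil mice. Points of this measure share the libraries, and genes are not independent replicates.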

How the data were processed

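The authors deposited a single table of unnormalised read counts, a row per gene and a column per mouse; per the labels each mouse was sequenced on 4 lanes. Per the labels' protocols the libraries were 3' tag libraries (Lexogen QuantSeq). The submitters' processing notes name Trimmomatic, STAR 2.5.1a, Partek 6.6 and mm10; annotation and strand setting were not given in the sources used here, and no molecular identifiers are mentioned, so limits cover counting error only. The 4 tallies of unassigned reads were left out. All pairs of libraries within a group differed beyond counting noise (smallest chi-square per degree of freedom 10.8). The labels name separate mice, so p-values measure the spread between mice.

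Testing used edgeR 4.0.16 (R 4.3.3): filterByExpr by group, TMM scaling, the robust quasi-likelihood F-test on 1 fit of all 3 groups (12 residual degrees of freedom; for the index series, 4 cells), and Benjamini-Hochberg adjusted p under 0.05 over 9001 genes. The SE of a log2 fold change was derived from its F statistic. Summed marker levels are CPM of gene reads without TMM scaling. The tests were tried on simulated data. The alternatives were RLE and upper-quartile scaling, no filter, DESeq2 1.42.0, a replicate block, only the groups compared, index series as a term or within 1 series, each mouse left out, and a pseudocount of 5 in place of 1 for likeness. The members and lists were chosen with earlier results of these data known. Named besides the members are up to 4 genes per pathway list with the smallest p among those past the test. Also named are the 8 genes most like the members among all tested (the mean profile uses members with 10 CPM or more on average). Trem1, Clec4f, Xist and Y-linked genes serve as checks. Ifng, Marco, Bst2, Pax5, Cd79a, H2-DMb2, Folr2, Csf1r, Cd5l, C1qa, Rfx5, Rfxap and Rfxank were named after their values were seen. So were Ctsd and Cd83 in wild-type CCl4 over oil. One gene of the regulator list is not reported here and was left out of its counts. Promoters are from RefSeq on GRCm38.p6. March1, March8 and H2-Ea of the lists were not matched by name; 27 gene names had been turned into dates in the table.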

Additional observations from a re-analysis of the deposited data

Results flagged for a closer look

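Of 30 sets of 5 mice examined, 1 held a mouse far from the others, where chance flags about 1 in 20: Clec4f in wild-type CCl4 mouse 1, at 566.352 CPM, stood above the 120 to 247 CPM of the other 4. That mouse also had the lowest ratio of class II sum to Clec4f of its group, 2.94, and the highest H2-DMb1, 308 CPM.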

How the results depend on the processing

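The log2 fold changes of the 7 members kept their sign in every alternative run for the 3 comparisons between groups, except Ciita for CCl4 in wild type with index series as a term (1.35). Within the Trem1-deficient mice, H2-DMb1 went to -0.022 without mouse 1 and to 0.46 without mouse 2. In Trem1-deficient CCl4 over oil, members called lower numbered 3 to 4 when each mouse was left out, 5 by DESeq2, and 2 within 1 index series; in wild-type CCl4 over oil 5 were called without any 1 mouse and 0 with index series as a term. In Trem1-deficient over wild-type CCl4, 1 member, H2-DMb1, was called higher by DESeq2, with upper-quartile scaling, and without wild-type CCl4 mouse 1 (0 to 1 when each mouse was left out).

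Upper-quartile scaling moved the median of all genes by -0.16 in wild-type CCl4 over oil and by 0.19 in Trem1-deficient over wild-type CCl4; calls there were 200 higher and 216 lower, against 274 and 188, and 86 and 72, against 70 and 115. The replicate numbers do not pair the mice: deviations of same-numbered mice correlated at -0.06 to 0.05, and 3 of 15 correlated best with their own number. With the replicate block, Trem1-deficient CCl4 over oil had 8 lower calls against 5, and wild-type CCl4 over oil 187 higher and 178 lower.

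For wild-type CCl4 over oil, calls were 522 higher and 291 lower without the filter, 619 and 396 by DESeq2, 110 lower with only those groups, 25 and 12 with index series as a term, and 180 to 336 and 115 to 423 when each mouse was left out, the extremes being without oil mouse 4, oil mouse 3 and wild-type CCl4 mouse 1. For Trem1-deficient CCl4 over oil they were 44 and 29 without the filter, 58 and 17 by DESeq2, 10 lower with only those groups, 6 higher within 1 index series, and 7 to 22 and 4 to 7 over left-out mice, with 16 and 5 in the fit of all mice. For Trem1-deficient over wild-type CCl4 they were 161 and 402 without the filter, 192 and 416 by DESeq2, 35 higher with only those groups, 37 and 40 within 1 index series, and 35 to 296 and 52 to 212 over left-out mice, highest without wild-type CCl4 mouse 1 and lowest without Trem1-deficient mouse 2. Between index series they were 5 and 1, against 44 and 3 without the filter, 58 and 3 by DESeq2, 52 and 9 in the Trem1-deficient mice alone, and 0 to 15 and 1 to 1 over left-out mice. The cause of these shifts was not tested.

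Ciita had counts of 0 to 129, and single libraries had 4 and 8 H2-DMa reads; the SEs of both genes between groups were 0.78 to 0.94 on the log2 scale, and the part of depth in them was not tested.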
